A study of Mus musculus with 6 samples.

Results

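The H4K5ac-rich windows described here are stretches of 1 kb inside protein-coding genes, away from annotated starts, that carried many H4K5ac-ChIP reads in the mouse hippocampus. They were chosen by measured values. A candidate window lay on chromosomes 1 to 19, wholly inside the body of a protein-coding gene and at least 5 kb from any transcription start site (TSS) of the GENCODE annotation of mm9. It was kept when FC and CON together held 60 or more H4K5ac-ChIP reads and when H4K5ac-ChIP was at least 2.5 times input, in reads scaled to library size (RPM), in FC and in CON. Of 691658 candidate windows, among 2472353 windows in all, 58776 held 60 or more reads and 7024 met the whole rule. Because H4K5ac-ChIP and input chose these windows, their levels over input are a description and support nothing.

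The study sequenced chromatin of the hippocampus of C57/BL6 mice of 6 months in 6 libraries. FC mice underwent contextual fear conditioning, in which a foot shock is paired with a new context, and CON mice were exposed to the context only. For each group there was 1 H4K5ac-ChIP library, 1 mock IgG-IP library and 1 input library, so that nothing could be tested between the groups and intervals cover counting error only, between libraries and not between conditions. The labels give no time after training and do not say how many mice each library holds. Whole hippocampus mixes neurons and glia, in which more cells of a type and more acetylation per cell cannot be told apart.

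Acetylation of lysine 5 of histone H4 (H4K5ac) neutralizes a positive charge of the histone tail and is laid down by acetyltransferases, removed by histone deacetylases and bound by bromodomain proteins. It marks active promoters, enhancers and the bodies of transcribed genes. Long introns of neuronal genes are known to hold enhancers and alternative starts, which is why acetylated stretches inside genes but away from starts are of interest. Fear conditioning has been linked to histone acetylation in the hippocampus, where memory of a context is formed.

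The windows that stood highest over input in both groups lay in introns of genes of diverse function. The 12 leading windows had the largest lower-of-both-groups ratio to input, with 1 read added to input. Below are the 300 bases with most H4K5ac-ChIP reads of the first 7 of them. The rule itself adds no read, and by its ratio the order differs, with Dis3l2 (lower of both groups 5.59) above Hs1bp3 (5.30). They were read from the mm9 genome, 5′ to 3′ on the strand of the host gene. Capitals mark matches, on either strand, to the motifs named further down.
Cdk19: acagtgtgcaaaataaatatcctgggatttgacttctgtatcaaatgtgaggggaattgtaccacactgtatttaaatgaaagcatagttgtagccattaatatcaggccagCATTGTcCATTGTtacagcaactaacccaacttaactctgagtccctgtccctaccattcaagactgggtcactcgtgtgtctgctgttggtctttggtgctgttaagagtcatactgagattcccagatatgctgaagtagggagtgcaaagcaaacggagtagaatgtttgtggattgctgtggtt
Cdh8: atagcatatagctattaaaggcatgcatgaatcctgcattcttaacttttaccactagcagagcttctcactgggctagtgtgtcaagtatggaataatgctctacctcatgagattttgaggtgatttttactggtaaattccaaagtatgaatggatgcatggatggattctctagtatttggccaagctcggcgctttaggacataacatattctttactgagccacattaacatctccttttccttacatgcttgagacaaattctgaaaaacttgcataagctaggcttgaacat
Tspan14: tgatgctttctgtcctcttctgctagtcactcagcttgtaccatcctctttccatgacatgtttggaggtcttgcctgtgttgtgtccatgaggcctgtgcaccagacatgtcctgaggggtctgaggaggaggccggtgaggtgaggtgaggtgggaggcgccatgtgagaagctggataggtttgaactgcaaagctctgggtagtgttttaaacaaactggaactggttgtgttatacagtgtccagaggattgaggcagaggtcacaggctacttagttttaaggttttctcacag
Rin2: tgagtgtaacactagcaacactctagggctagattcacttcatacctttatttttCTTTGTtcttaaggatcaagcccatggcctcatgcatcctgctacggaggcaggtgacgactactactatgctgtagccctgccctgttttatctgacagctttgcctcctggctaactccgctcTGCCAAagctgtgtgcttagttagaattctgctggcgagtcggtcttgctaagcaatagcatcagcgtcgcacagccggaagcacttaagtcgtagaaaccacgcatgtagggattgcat
Ptn: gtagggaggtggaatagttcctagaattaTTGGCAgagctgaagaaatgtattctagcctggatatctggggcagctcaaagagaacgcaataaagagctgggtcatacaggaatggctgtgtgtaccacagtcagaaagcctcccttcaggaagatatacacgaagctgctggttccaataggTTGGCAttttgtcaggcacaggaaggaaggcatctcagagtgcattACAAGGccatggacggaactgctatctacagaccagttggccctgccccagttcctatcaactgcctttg
Atf7ip: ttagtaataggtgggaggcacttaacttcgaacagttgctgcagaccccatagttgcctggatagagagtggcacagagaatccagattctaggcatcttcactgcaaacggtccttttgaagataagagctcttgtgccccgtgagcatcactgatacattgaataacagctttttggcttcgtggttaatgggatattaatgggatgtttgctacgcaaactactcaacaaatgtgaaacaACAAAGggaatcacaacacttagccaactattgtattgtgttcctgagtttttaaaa
Hs1bp3: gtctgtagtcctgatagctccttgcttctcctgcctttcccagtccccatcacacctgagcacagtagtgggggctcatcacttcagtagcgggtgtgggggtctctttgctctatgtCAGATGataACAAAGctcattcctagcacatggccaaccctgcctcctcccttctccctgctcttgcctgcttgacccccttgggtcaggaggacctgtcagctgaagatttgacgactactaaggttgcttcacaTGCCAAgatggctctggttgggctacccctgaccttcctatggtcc
The first stretch is chr10:40166005-40166304 (plus strand) in intron 4 of Cdk19, a kinase of the Mediator complex. The others are chr8:101773674-101773973 (minus strand) in intron 3 of Cdh8, a cadherin, chr14:41770121-41770420 (minus strand) in intron 1 of Tspan14, a tetraspanin, chr2:145658001-145658300 (plus strand) in intron 3 of Rin2, a regulator of Rab GTPases, chr6:36732618-36732917 (minus strand) in intron 1 of Ptn, the growth factor pleiotrophin, chr6:136492001-136492300 (plus strand) in intron 1 of Atf7ip, and chr12:8342623-8342922 (plus strand) in intron 4 of Hs1bp3. Introns are numbered in the longest protein-coding transcript. The Cdk19 stretch held 21 FC and 20 CON H4K5ac-ChIP reads, against 1 and 6 IgG-IP reads and 3 and 2 input reads. In the Tspan14 stretch there were 35 and 34 H4K5ac-ChIP reads, 2 and 5 IgG-IP reads and 7 and 2 input reads. The Cdh8 and Tspan14 stretches held none of the motifs, the Cdk19 stretch held 2 SOX matches, and that of Ptn held 2 NFI half-sites and 1 SOX match.

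Across the whole 1 kb, the Cdk19 window held 47 FC and 53 CON H4K5ac-ChIP reads, 5 and 8 IgG-IP reads and 8 and 7 input reads. The Cdh8 window held 30 and 37 H4K5ac-ChIP reads, 6 and 7 IgG-IP reads and only 3 and 5 input reads, so that its ratio to input, 14.5 in FC and 7.06 in CON, rested on few input reads. The Tspan14 window held 73 and 82 H4K5ac-ChIP reads, 3 and 8 IgG-IP reads and 18 and 9 input reads, and its H4K5ac-ChIP was 10.8 times IgG-IP in FC (95% exact binomial interval 3.54 to 53.3) and 4.56 times in CON (2.21 to 10.9). In RPM, H4K5ac-ChIP was above IgG-IP in both groups in all 3 windows, although for Cdh8 in FC the interval of the ratio to IgG-IP, 2.21 (0.905 to 6.49), included equality. The other 9 leading windows lay in Rin2, Ptn, Atf7ip, Hs1bp3, Usp54, 2810055G20Rik, Dis3l2, Magi2 and Btd. None of the 12 overlapped an exon. Their GC content ranged from 34.7% in Cdh8 to 50.7% in Hs1bp3.

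Near the threshold the choice turned on single reads. The 5 windows just inside lay in Itpr2, Zbtb16, Park2, Rftn1 and Ncoa2, and the first 4 of them had 55 CON H4K5ac-ChIP reads against 21 CON input reads, a ratio of 2.5 after rounding. The 5 candidates just outside lay in Fam102a, Mbnl1, Dclk2, Sort1 and Bach2 and each had 43 FC H4K5ac-ChIP reads against 25 FC input reads, a ratio of 2.498.

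The chosen windows held 60 to 156 pooled H4K5ac-ChIP reads, with a median of 80. Their mean level was 1.46 RPM per window in FC H4K5ac-ChIP and 1.35 in CON H4K5ac-ChIP, compared to 0.545 and 0.554 over all candidates. Mean IgG-IP was 0.430 RPM in FC and 0.448 in CON, against 0.411 and 0.419 in candidates. Mean input was 0.468 RPM in FC and 0.406 in CON, against 0.448 and 0.428. Thus the windows stood apart in both H4K5ac libraries, IgG-IP lay close to its level over candidates and CON input was lower than there. The median ratio to input, with 1 read added to input, was 2.84 in FC (5th to 95th percentile 2.42 to 4.53) and 2.93 in CON (2.39 to 4.88), while the median over candidates was 1.09 and 1.11.

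Mock IgG-IP took no part in the rule. Of the chosen windows, 60 (0.854%) held at least 2 times the mean pooled IgG-IP reads of a candidate window, compared to 0.922% of all candidates. This share is not free of the rule, which asks for 2.5 times input and so disfavours windows dense in input. Mean pooled IgG-IP was 11.5 reads in the chosen windows and 10.9 in candidates. The highest pooled IgG-IP count was 29 reads in the chosen windows and 1073 in the candidates. H4K5ac-ChIP was above IgG-IP in both groups in 7001 of 7024 windows, but the same count was not made for other candidates. That comparison and those that follow share their H4K5ac-ChIP reads with the rule. H4K5ac-ChIP was at least 2.5 times IgG-IP in both groups in 3704 (52.7%), against 36.2% of the 58776 candidates with 60 or more reads. Pooled over the windows, H4K5ac-ChIP was 3.40 times IgG-IP in FC (3.36 to 3.44) and 3.02 times in CON (2.99 to 3.05). Over candidates with 60 or more reads it was already 2.82 times in FC and 2.59 times in CON. With IgG-IP in place of input the rule kept 21305 windows, of which 3704 were among the 7024, so which windows are listed depends on the control used.

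How well did a choice made in one group hold in the libraries of the other? When only FC was asked for 30 or more H4K5ac-ChIP reads and 2.5 times input, 13462 candidates (1.95%) met both, and 42.8% of them also met the same limits in CON. When only CON was asked, 36417 candidates (5.27%) met them, and 15.8% also did so in FC. These 2 shares describe 5767 windows in common. The limit of 30 reads was not scaled to library size, and H4K5ac-ChIP held 27051420 reads in FC and 31837397 in CON. In RPM the limit was thus higher in FC, and the numbers of the 2 groups are not on a like threshold. The level in the group that had not been asked is free of the choice. For windows chosen in FC, mean CON H4K5ac-ChIP was 1.18 RPM, above the 0.554 of all candidates, with CON IgG-IP at 0.453 and CON input at 0.487. For windows chosen in CON, mean FC H4K5ac-ChIP was 1.13 RPM, above 0.545, with FC IgG-IP at 0.428 and FC input at 0.613.

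This reading in the other group also gives the levels around the chosen windows. In CON, the windows chosen in FC stood at 1.18 RPM, their neighbours 1 kb away at 1.09 on either side, those 5 kb away at 0.954 and 0.956 and those 20 kb away at 0.892 and 0.890. The choosing library itself went from 1.43 RPM in the window to 1.14 at 1 kb. The centre was thus above its neighbours also in the library that had not chosen it, by less than in the choosing library, and the level at 20 kb was above the candidate mean. IgG-IP and input also had a small rise at the centre, from 0.436 to 0.453 RPM and from 0.466 to 0.487 in CON, so that CON H4K5ac-ChIP over input was 2.41 in the window, 2.35 and 2.34 at 1 kb and 1.97 and 1.96 at 20 kb. Windows chosen in CON and read in FC gave the same order, with 1.13 RPM in the window, 1.05 at 1 kb and 0.880 and 0.884 at 20 kb. FC input rose at the centre too, from 0.575 and 0.576 RPM at 1 kb to 0.613. FC H4K5ac-ChIP over input was 1.84 in the window, 1.82 at 1 kb and 1.65 at 20 kb. Relative to input the centre thus hardly differed from its neighbours. At 20 kb, averages covered 9292 and 9297 of 13462 windows chosen in FC, and 23784 and 23843 of 36417 chosen in CON.

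**Figure D1:**
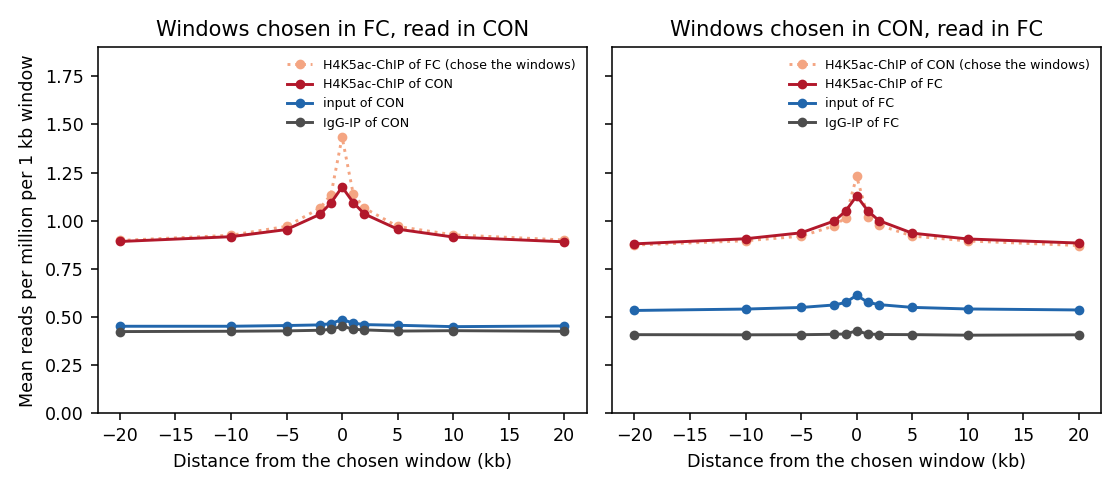
Mean RPM per 1 kb window (y axis) against the distance in kb from windows chosen in FC alone (left) or in CON alone (right). Solid lines are the 3 libraries of the group that did not choose the windows, and the dotted line is H4K5ac-ChIP of the choosing group. H4K5ac-ChIP of the other group was highest in the window, at 1.18 (left) and 1.13 (right), and was still 0.890 and 0.884 at 20 kb. IgG-IP and input of that group also rose in the window.

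Around the 7024 windows themselves, with distances taken in the direction of the gene and only other candidates of the same gene counted, FC H4K5ac-ChIP was 1.46 RPM in the window, 1.23 and 1.22 at 1 kb upstream and downstream, 1.02 and 1.03 at 5 kb and 0.938 and 0.942 at 20 kb. CON H4K5ac-ChIP was 1.35, then 1.17 and 1.17, 1.00 and 1.01, and 0.932 and 0.928. Only 4743 and 4863 windows were left at 20 kb, so the distances compare different windows. At 1 kb, 20.6% and 20.5% of the neighbours were themselves chosen. Upstream and downstream were alike, and IgG-IP was 0.430 RPM in FC and 0.448 in CON in the window and 0.409 and 0.425 at 20 kb upstream. Input dipped in the chosen window, from 0.548 RPM at 1 kb to 0.468 in FC and from 0.466 and 0.464 to 0.406 in CON, and low input is part of what the rule chose.

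**Figure D2:**
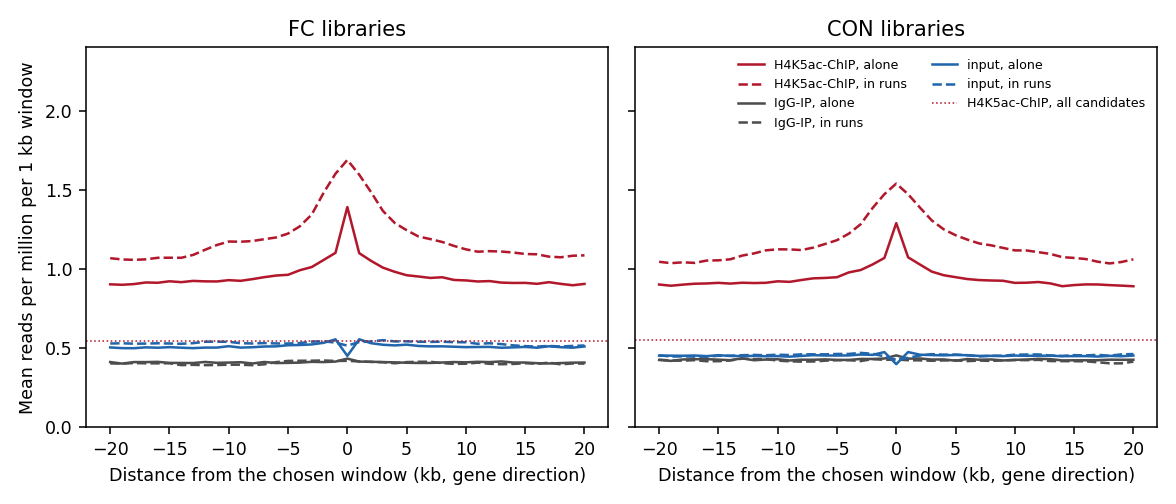
Mean RPM per 1 kb window (y axis) within 20 kb of the chosen windows, in the direction of the gene, for the FC (left) and CON (right) libraries. Solid lines are windows with no chosen neighbour, dashed lines are windows in runs of 3 or more, and the dotted line is H4K5ac-ChIP over all candidates. H4K5ac-ChIP stood above the dotted line across the 20 kb on either side, IgG-IP was near flat and input dipped in the chosen window.

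Most windows had no chosen neighbour and some lay in runs. Of the 7024, 4669 (66.5%) had no chosen window next to them, 690 pairs were adjacent and 975 (13.9%) lay in 262 runs of 3 or more. Another chosen window lay within 5 kb of 59.0% of them. The longest runs were 10 windows, in Hs1bp3, Igsf11 and Zbtb20. The other runs named were 9 windows in Ralgds and in Btd and 8 in Mbp, the gene of myelin basic protein.

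The run in Hs1bp3, chr12:8338001-8348000, averaged 2.13 RPM in H4K5ac-ChIP of FC and 1.88 in that of CON, 0.385 and 0.388 in IgG-IP and 0.603 and 0.477 in input, with a mean GC content of 52.9%. In Igsf11, an adhesion molecule of the immunoglobulin family, the run chr16:38941001-38951000 lay wholly in intron 1 and averaged 1.84 and 1.71 RPM in H4K5ac-ChIP, 0.376 and 0.480 in IgG-IP and 0.552 and 0.526 in input. The run of Zbtb20, a zinc finger transcription factor of hippocampal pyramidal neurons, was chr16:43570001-43580000 and averaged 1.77 and 1.59 RPM in H4K5ac-ChIP, 0.435 and 0.402 in IgG-IP and 0.542 and 0.431 in input, and 3 of its windows overlapped an exon. In these 3 runs both H4K5ac libraries lay 3 or more times above input, where the rule had asked for 2.5 times in each window. FC over CON was 1.13 in Hs1bp3, 1.08 in Igsf11 and 1.11 in Zbtb20.
The run of Btd, the gene of biotinidase, chr14:32470001-32479000, had the highest level, 2.52 RPM in FC and 2.03 in CON, with 0.474 and 0.384 in IgG-IP and 0.673 and 0.464 in input. FC over CON was 1.24 there (1.10 to 1.39), 1.26 in Ralgds (1.11 to 1.43), a Ral exchange factor, and 1.13 in Hs1bp3 (1.01 to 1.27), while the intervals in Igsf11 (0.954 to 1.22), Zbtb20 (0.977 to 1.26) and Mbp (0.996 to 1.32) included 1. FC input was also above CON input in all 6 runs.

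Most windows were intronic. An exon was overlapped by 9.38% of them, against 15.3% of candidates and 14.4% of candidates with 60 or more reads. Coding sequence was overlapped by 7.73%, compared to 13.3% and 12.1%, and an untranslated region by 3.45%, compared to 4.40% and 4.78%. Of the 6363 windows wholly in an intron of the longest transcript, 34.2% were in intron 1, against 25.8% of such candidates and 32.2% of those with 60 or more reads. The last intron held 7.69%, 8.87% and 7.65%, respectively. The high share in intron 1 was mostly shared with candidates of 60 or more reads. The lower exon overlap depended on the control: 90.6% of the chosen windows were free of exons, but 85.5% were with IgG-IP in place of input and 86.6% with input scaled by GC content, against 85.6% of candidates with 60 or more reads.

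With distance from a TSS the share of candidates that were chosen changed little up to 50 kb and then declined. It was 1.09% at 5 to 10 kb, 1.11% at 10 to 20 kb, 1.15% at 20 to 50 kb, 0.942% at 50 to 100 kb and 0.554% beyond 100 kb. The share of candidates with 60 or more reads, which the rule asks for, declined as well, from 9.79% at 5 to 10 kb through 9.56%, 9.30% and 7.64% to 4.41% beyond 100 kb. The median distance to the nearest TSS was 23.4 kb (quartiles 11.7 and 46.6), compared to 26.3 kb for candidates and 21.9 kb for those with 60 or more reads, so the windows lay nearer than the former and farther than the latter. Windows lay along the whole gene, with 16.2% in the first 20% of the gene length and 17.9% in the last 20%, against 15.6% and 20.4% of candidates. The share of candidates chosen ran from 0.762% on chromosome 1 to 1.48% on chromosome 18.

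The GC content of the windows had a median of 44.5% (quartiles 41.1 and 48.3), above the 42.1% of candidates and below the 46.6% of candidates with 60 or more reads. With IgG-IP as the control the median was 47.8% and with input scaled by GC content 47.9%, both above the latter, so that this direction turned with the control. The median number of CpG dinucleotides was 10 per window, against 7 in candidates and 11 in those with 60 or more reads. Only 7 windows resembled a CpG island by a GC content of 50% or more and an observed over expected CpG ratio of 0.6 or more, which is 0.0997% of them, against 13.9% of the windows near a protein-coding TSS that passed the same thresholds. Of island-like candidates 1.18% were chosen, close to the 1.02% of other candidates.

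Motifs of factors active in neurons and glia were counted on both strands, and a match is only a description of letters. In windows between 41.1% and 48.3% of GC (3550 windows and 303772 candidates), the AP-1 motif TGANTCA was present in 28.5% of windows and 26.8% of candidates. The NFI half-site TTGGCA was present in 44.5% and 41.2%, the SOX motif ACAANG in 92.4% and 90.4%, the MEF2 core TAAAAATA in 15.04% and 14.0% and the bHLH motif CAGATG in 59.9% and 59.3%. The cAMP response element (CRE) TGACGTCA was present in 0.676% and 0.693%, and the Sp1 motif GGGCGG in 9.15% and 9.54%. All differences were within 4 percentage points. In other candidates of that GC range with 60 or more reads, AP-1 (29.2%), NFI (45.6%), bHLH (60.2%), CRE (0.726%) and Sp1 (9.88%) were more frequent than in the chosen windows, and MEF2 (13.0%) and SOX (91.2%) less so. Each motif was counted on its own, also where matches overlapped. Over all GC contents, CRE was found in 58 of the 7024 windows (0.826%) and in 0.588% of candidates.

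Windows that met the same thresholds elsewhere in the genome numbered 3596 of 109056 within 1 kb of a protein-coding TSS and 2319 of 1259697 at 5 kb or more from any gene. Against 7024 of 691658 inside genes, rich windows were thus more frequent near starts and less frequent between genes. Mean H4K5ac-ChIP was 1.54 RPM in FC and 1.37 in CON near a TSS and 1.56 and 1.39 between genes, against 1.46 and 1.35 in the windows inside genes. Median GC content was 47.9% and 46.5%, against 44.5%. FC over CON of H4K5ac-ChIP was 0.17 on the log2 scale in both sets (0.16 to 0.18 in each), and 0.12 inside genes (0.11 to 0.12), and log2 FC over CON of input was 0.29, 0.30 and 0.20.

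The 7024 windows fell in 1839 host genes, which is 14.5% of the 12702 protein-coding genes with a candidate window. A single window was found in 796 genes, 2 to 4 in 634, 5 to 9 in 237 and 10 or more in 172, and the last held 43.0% of all windows. Gene length set how many genes could be hosts. Of genes with 1 to 9 candidate windows 2.02% were hosts, of those with 100 to 299 windows 43.1%, and of those with 300 or more 48.9%. The share of windows chosen was 0.599% in the shortest class, 1.37% at 100 to 299 windows and 0.659% in the longest. Long genes were thus more often hosts, but the share of windows in the longest class was close to that in the shortest.

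On average, the rest of the body of host genes was also above input. Candidate windows of host genes that were not themselves chosen had H4K5ac-ChIP at 1.47 times input in FC (1.472 to 1.476) and 1.58 times in CON (1.582 to 1.586), compared to 1.02 and 1.09 in genes without a chosen window. In host genes with 5 or more chosen windows the other windows were at 1.62 and 1.73 times input. IgG-IP hardly moved, at 0.414 RPM in FC and 0.426 in CON for the other windows of host genes and 0.409 and 0.415 in genes without one. Single host genes differed, and the other windows of Gm20388 were at 0.979 and 1.39 times input and those of Hdac9 at 1.00 and 0.999. The removal of chosen windows makes these values a lower figure for the whole body.

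The starts of host genes, which the rule left out, were also more acetylated. In the 3 windows around the first base of the gene, H4K5ac-ChIP was 1.39 times input in FC (1.38 to 1.39) and 1.58 times in CON (1.57 to 1.58) for genes with no chosen window. It was 1.73 and 1.96 for genes with 1, 1.81 and 2.12 with 2 to 4, 1.86 and 2.17 with 5 to 9, and 1.83 (1.78 to 1.88) and 2.14 (2.08 to 2.21) with 10 or more. The largest step was from no window to 1, with a smaller one from 1 to 2 to 4, and the last 3 classes lay close together. IgG-IP at these starts was 0.350 RPM in FC and 0.360 in CON for genes without a chosen window and 0.319 and 0.337 for genes with 10 or more. The median length of the genes also went from 29.2 kb to 233 kb, and mean GC content at the start from 49.2% to 52.6%, and their part in the difference was not tested.

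Msra, which encodes a methionine sulfoxide reductase that repairs oxidized proteins, held most windows, 74 of 316 candidates (23.4%), from 22.2 to 328 kb from its first base, 33 of them in intron 6. Its chosen windows averaged 1.71 RPM in H4K5ac-ChIP of FC and 1.57 in that of CON, 0.381 and 0.430 in IgG-IP and 0.531 and 0.454 in input. The remaining windows of Msra stood at 1.21 and 1.23 RPM in H4K5ac-ChIP, on average 2.02 and 2.46 times input. Tcf4, a bHLH transcription factor, held 67 of 273 (24.5%), at 1.52 and 1.49 RPM in H4K5ac-ChIP, 0.417 and 0.472 in IgG-IP and 0.445 and 0.424 in input. Zbtb20 held 58 of 624 (9.29%), at 1.46 and 1.38 RPM, 0.486 and 0.473, and 0.416 and 0.406 in the same order, and its other windows were at 0.737 and 0.758 RPM, lower than those of Msra and Tcf4. Over input they were at 2.25 in FC, above the 2.02 of Msra and 2.12 of Tcf4, and at 1.76 in CON, below 2.46 and 2.34.

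Gm20388 followed with 56 windows of 2033. It is a gene model of 4435 kb with a first intron of 4384 kb in which all 56 lay, so these windows are assigned to it only because no shorter protein-coding gene held them. Without it 6968 windows in 1838 genes were left. Magi2, a scaffold protein of synapses, held 44 of 1388 (3.17%), 21 of them in intron 6, at 1.36 and 1.39 RPM in H4K5ac-ChIP, 0.437 and 0.449 in IgG-IP and 0.407 and 0.432 in input. The other windows of this very long gene were at 0.608 and 0.635 RPM, near the candidate mean, but at 1.85 and 1.56 times input, above the 1.22 and 1.29 of all candidates. The chosen ones lay between 319 and 1426 kb from its first base. Klf7, a Krüppel-like transcription factor, had the highest share among these 15 genes, 28 of 69 (40.6%), at 1.64 and 1.54 RPM in H4K5ac-ChIP, 0.379 and 0.444 in IgG-IP and 0.491 and 0.444 in input.

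The other genes of the first 15 were Ttc7b (39 windows, 18.1% of candidates), Pcdh9 (36, 4.22%), Prickle2 (35, 11.8%), Zbtb16 (33, 18.8%), Ctif (31, 12.4%), Cdk19 (31, 24.4%), Dscaml1 (30, 10.2%), Gnao1 (29, 27.6%) and Dock4 (29, 7.55%). They include a protocadherin (Pcdh9), a planar polarity protein (Prickle2), a zinc finger factor (Zbtb16), an adhesion molecule (Dscaml1), the alpha subunit of the G protein Go (Gnao1) and a Rac exchange factor (Dock4). Placement within the gene differed. In Pcdh9, 27 of 36 windows lay in intron 1 and none beyond 477 kb of 873 kb, in Prickle2 34 of 35 lay in intron 2, and in Dscaml1 28 of 30 lay in intron 3. Zbtb16 had the highest level, 1.82 RPM in H4K5ac-ChIP of FC and 1.80 in that of CON, with 0.423 and 0.475 in IgG-IP and 0.590 and 0.424 in input.

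**Figure D3:**
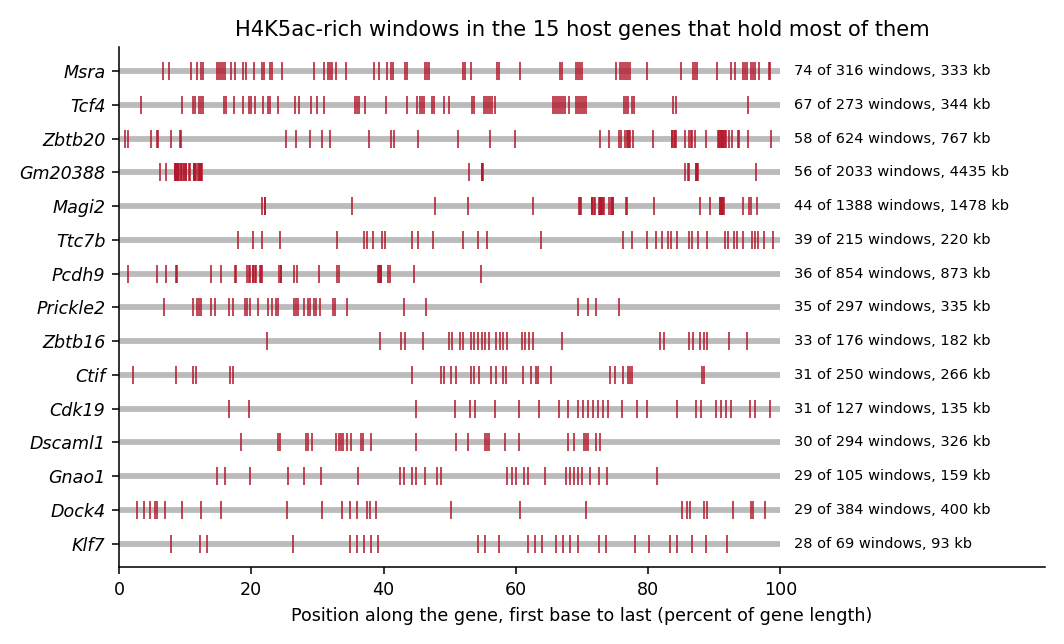
Position of each H4K5ac-rich window (vertical marks) along the 15 host genes with most of them, from the first base of the gene to the last in percent of gene length (x axis). Text at the right gives the number of chosen and candidate windows and the gene length. Windows within 5 kb of any TSS could not be chosen, and marks are spread over most of Msra and Tcf4 and grouped in Magi2, Pcdh9 and Gm20388.

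Among gene lists other than cell type markers, forebrain transcription factors had the highest share of windows pooled over genes, although the median share per gene was 1.69%, below the 1.905% of the calcium and calmodulin signalling list. Of 23 such genes with candidates 17 were hosts, with 234 of 5882 windows (3.98%), against 1.02% over all genes. Tcf4 and Zbtb20 led, followed by Zeb2 with 24 of 109 windows (22.0%), a transcriptional repressor needed in neural development, and Nfia with 20 of 385 (5.19%), a nuclear factor I protein of neurons and astrocytes. Zeb2 stood at 1.26 RPM in H4K5ac-ChIP of FC and 1.46 in that of CON, with 0.467 and 0.465 in IgG-IP and 0.378 and 0.398 in input. Without Tcf4 the list was at 2.98%. Windows of a gene are not independent, so the shares of lists are descriptions.

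Calcium and calmodulin signalling genes held 100 of 4749 windows (2.11%), in 12 of 21 genes. Itpr1, the inositol trisphosphate receptor that releases calcium from stores, had 21 of 310, at 1.49 RPM in H4K5ac-ChIP of FC and 1.45 in that of CON, 0.446 and 0.491 in IgG-IP and 0.476 and 0.439 in input. Prkca and Prkce, kinases of the protein kinase C family, had 19 and 14, and Ppp3ca, the catalytic subunit of calcineurin, had 12. Postsynaptic scaffold genes held 88 of 6740 (1.31%), led by Ank2 with 27 and Dlg2 with 20. Without Ank2 that list was at 0.965%, below the share over all genes. The synaptic adhesion list, in which the scaffold gene Magi2 was counted, held 195 of 20329 (0.959%, or 0.797% without Magi2). It was led by Magi2 (44), Cadm2 and Nlgn1 (21 each) and Cadm1 (16, all in intron 1). Cadm1 stood at 1.35 and 1.304 RPM in H4K5ac-ChIP and Nlgn1, a neuroligin, at 1.23 in both.
The list of histone-modifying enzyme genes, which also contained the DNA methyltransferase Dnmt3a, held 25 of 1535 (1.63%, or 1.34% without Dnmt3a). Of these, 5 each lay in Dnmt3a, Hdac4 and Kdm4b. The cAMP and CREB genes held 47 of 4793 (0.981%), of which Pde4b, a cAMP phosphodiesterase, had 19, and 0.644% without Pde4b. The neurotrophin genes held 14 of 896 (1.56%), 7 in Ntrk2, the receptor of BDNF, and 7 in Sort1, sortilin. PI3K and mTOR genes held 12 of 1292 (0.929%).

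Ion channel and transmitter receptor lists were below the 1.02% of windows over all genes but above the 14.5% of genes that were hosts. Hosts were 56.5% of glutamate receptor, 31.6% of calcium and sodium channel, 20.8% of potassium channel and 18.2% of GABA-A receptor genes. In genes with 300 or more candidate windows the shares were 0.659% of windows and 48.9% of genes. The lists were not matched for gene length. Potassium channel genes held 23 of 7899 windows (0.291%), of which Kcnq3 had 13, all in intron 1, and 0.131% without it. Glutamate receptor genes held 45 of 8408 (0.535%), of which Grm3, a metabotropic receptor, had 17, at 1.38 RPM in H4K5ac-ChIP of FC and 1.43 in that of CON, 0.458 and 0.415 in IgG-IP and 0.319 and 0.461 in input, and without it the list was at 0.342%. Calcium and sodium channel genes held 19 of 3994 (0.476%, or 0.279% without Cacna2d3), GABA-A receptor genes 7 of 2004 (0.349%, or 0.125% without Gabrb1) and presynaptic release genes 15 of 4543 (0.330%). Immediate early genes, most of them short, had only 177 candidate windows in 9 of 25 genes and no chosen one, which would allow a share of up to 1.69% if windows of a gene were independent, and more as they are not.

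Genes measured by RT-qPCR in the study were picked from those called in these samples, so their windows are not independent evidence. The 12 genes held 22 of 4176 windows (0.527%). Akap6, which anchors protein kinase A, had 7, at 1.299 RPM in H4K5ac-ChIP of FC and 1.297 in that of CON, 0.478 and 0.434 in IgG-IP and 0.378 and 0.451 in input. Ntrk2 also had 7, at 1.48 and 1.22 RPM, 0.370 and 0.454, and 0.509 and 0.362 in the same order, 5 of them in intron 14. Atp8a1 had 3, Grid1 2, and Megf11 and Rnf220 1 each. Kdm2a, Ryr3, Kcnd2, Col2a1 and Serpina9 had none. Over all candidate windows of the gene, Kdm2a stood at 0.652 RPM in H4K5ac-ChIP of FC and 0.649 in that of CON, with 0.412 and 0.440 in input. Kcnd2 stood at 0.478 and 0.5497, with 0.271 and 0.415 in input, and Ryr3 at 0.492 and 0.477, with 0.393 and 0.424. In Serpina9 (12 windows) H4K5ac-ChIP was 0.659 and 0.720 and input 0.675 and 0.491, and in Col2a1 (7 windows) 0.380 and 0.346 and input 0.724 and 0.432, so that FC H4K5ac-ChIP was below FC input in both.

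Markers of the cell types of the hippocampus were measured as a check of the tissue. Mbp of oligodendrocytes held 13 of 74 windows (17.6%), at 1.79 RPM in H4K5ac-ChIP of FC and 1.56 in that of CON, 0.373 and 0.386 in IgG-IP and 0.634 and 0.402 in input, and the other 10 genes of that list with candidates held none. The oligodendrocyte list as a whole thus held 13 of 278 windows (4.68%), against 1.02% over all genes. Astrocyte markers held 3 of 1982 windows (0.151%) and microglial and vascular markers 2 of 547 (0.366%), both in Pecam1. Excitatory neuron markers held 4 of 575 (0.696%), all in Grik4. Inhibitory interneuron markers held 0 of 2031 and genes of liver and muscle 0 of 415, which would allow shares of up to 0.148% and 0.723% if windows of a gene were independent, and more as they are not. H4K5ac-ChIP over input, as the median of whole gene bodies, was 1.36 in FC and 1.23 in CON for oligodendrocyte markers, 1.21 and 1.31 for excitatory neuron markers and 1.14 and 1.49 for astrocyte markers. It was lower for inhibitory interneuron markers (0.899 and 0.804), microglial and vascular markers (0.80003 and 1.10) and liver and muscle genes (0.667 and 0.817). The genes of these lists overlapped, from 0.290 to 1.48 in FC and 0.171 to 2.55 in CON for liver and muscle and from 0.619 to 1.95 and 0.587 to 2.02 for excitatory neurons, so the check separated the tissues only in part. The part of each cell type in the chosen windows was not tested.

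Finally, H4K5ac-ChIP of FC and CON was compared over the windows, with the reads that also chose them. FC over CON at 1.5-fold or more was found in 465 of 7024 windows (6.62%), compared to 7.27% of candidates with 60 or more reads, and CON over FC at 1.5-fold or more in 153 (2.18%), compared to 4.32%. Both shares were below those of candidates with 60 or more reads, which are not matched to the chosen windows in depth. Per window, log2 FC over CON had a median of 0.11 (5th to 95th percentile -0.46 to 0.63), and the median of those candidates was 0.05 (-0.55 to 0.65). Pooled over all windows it was 0.12 (0.11 to 0.12), against 0.06 for candidates with 60 or more reads and -0.02 for all candidates. Log2 FC over CON of input in the same windows was 0.20 (0.19 to 0.22) and of IgG-IP -0.06 (-0.08 to -0.04).

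**Figure D4:**
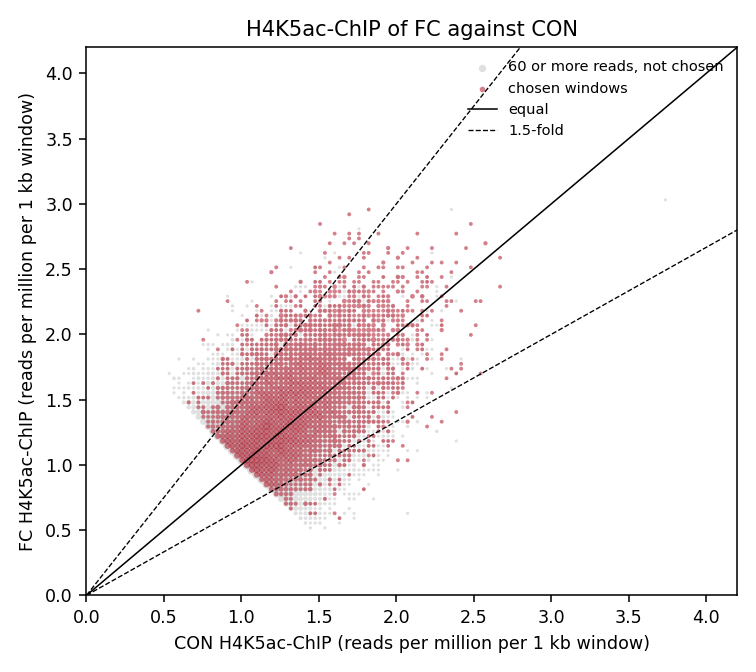
H4K5ac-ChIP of FC (y axis) against CON (x axis) in RPM per 1 kb window, for chosen windows (red) and for other candidates with 60 or more reads (grey). A point stands for all windows with its pair of counts, the solid line is equality and dashed lines are 1.5-fold; 5 grey windows above 120 reads are not drawn. Most red points lie between the dashed lines, with 465 at or above the upper and 153 at or below the lower one.

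The difference followed GC content. In windows below 40% GC, log2 FC over CON of H4K5ac-ChIP was -0.12, at 40 to 44% it was 0.03, at 44 to 48% 0.16, at 48 to 52% 0.24 and from 52% 0.32. Input followed the same order more steeply, with -0.35, 0.04, 0.30, 0.46 and 0.59, and IgG-IP stayed between -0.10 and 0.00. In all candidates H4K5ac-ChIP went from -0.16 to 0.15 and input from -0.57 to 0.70. Mean FC input of candidates was 0.267 RPM below 40% GC and 0.673 from 52%, while CON input was 0.397 and 0.414. A level of 2.5 times that mean is 0.667 RPM in FC and 0.993 in CON for GC-poor windows, and 1.68 and 1.04 for GC-rich ones, so the rule asked FC and CON for different levels at each end. The sign of the pooled difference turned to -0.09 when the difference of input was taken off. Less the difference of candidates of the same GC content it was 0.11. In windows chosen with CON input as the control in both groups it was 0.080, and with FC input in both 0.010, so that the size of the difference depended on which input chose the windows.

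**Figure D5:**
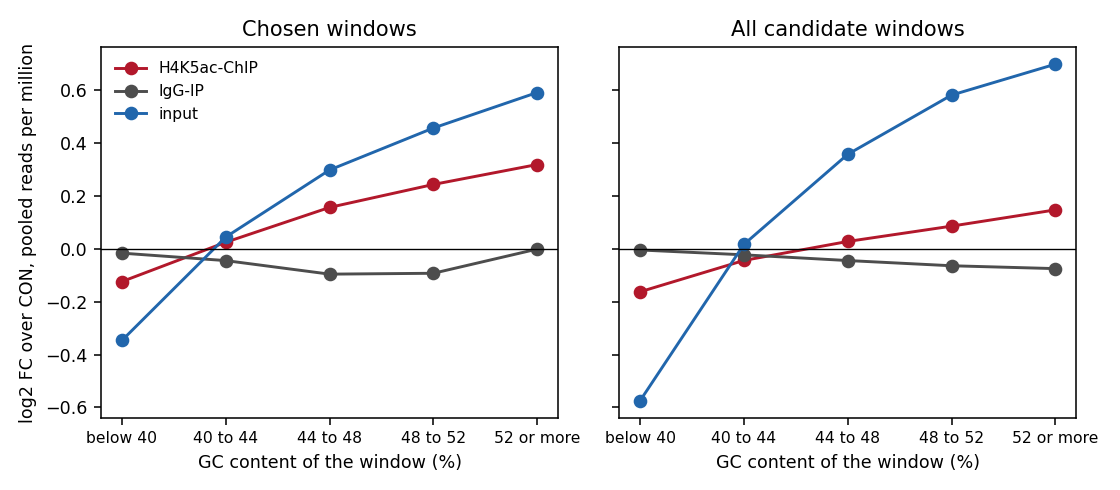
Log2 FC over CON of pooled RPM (y axis) in 5 classes of GC content (x axis), for the chosen windows (left) and all candidates (right). Points are 1 library pair each, H4K5ac-ChIP in red, IgG-IP in grey and input in blue. H4K5ac-ChIP went from -0.12 to 0.32 and input from -0.35 to 0.59 in the chosen windows, and IgG-IP stayed near 0.

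Windows at both ends of FC over CON differed in GC content. The 6 with the highest ratio lay in Hlcs, Gm20388, Tpcn1, Dst, 4930427A07Rik and Pkd1l1, with 46.3 to 59.0% GC. In Hlcs, holocarboxylase synthetase, there were 59 FC and 23 CON H4K5ac-ChIP reads, 4 and 3 IgG-IP reads and 27 and 5 input reads, and FC over CON was 3.02 (1.84 to 5.12). In Tpcn1, a cation channel of endolysosomes, there were 61 and 29, 3 and 6, and 21 and 10 reads, and the ratio was 2.48 (1.57 to 4.00). In both windows FC input was above CON input as well.
The 6 with the lowest ratio lay in Psd3, Mtap2, Btaf1, Srgap2, Ptprn2 and Megf9, with 35.7 to 40.6% GC. In Psd3 there were 16 FC and 52 CON H4K5ac-ChIP reads, 1 and 4 IgG-IP reads and 9 and 18 input reads, and FC over CON was 0.362 (0.193 to 0.644). In Mtap2, a microtubule protein of dendrites, there were 17 and 51, 6 and 6, and 5 and 12 reads, and the ratio was 0.392 (0.212 to 0.691). As the most extreme of 7024 windows, these values overstate any difference between the libraries.

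By host gene, differences were smaller. In the 172 genes with 10 or more windows, log2 FC over CON of the pooled windows ranged from -0.21 to 0.36, with a median of 0.13. The interval lay wholly above 0 in 65 genes (37.8%) and wholly below 0 in 4 (2.33%), compared to 19.7% and 3.1% of 1357 genes with 10 or more other candidates of 60 or more reads. The reads of these windows also chose them, and input of FC was above that of CON in 132 of the 172 genes. At the mean input of candidates, the rule asked for 1.68 RPM in FC and 1.04 in CON from 52% GC. Below 40% GC it asked for 0.667 and 0.993. The 172 and 1357 genes were not matched for number of windows or reads per window, on which the width of an interval depends. For these reasons the shares cannot decide whether FC and CON differ. Over all candidates with 60 or more reads, log2 FC over CON was 0.37 in input and 0.06 in H4K5ac-ChIP. The excess of FC input is thus not particular to these genes, and input was not counted by gene elsewhere. Msra was at 0.13 (0.06 to 0.20), Gm20388 at 0.32 (0.24 to 0.40), Ctif at 0.29 (0.19 to 0.40), Dscaml1 at 0.26 (0.15 to 0.37), Tcf4 at 0.03 (-0.05 to 0.10), Pcdh9 at -0.13 (-0.24 to -0.02) and Zeb2 at -0.21 (-0.34 to -0.08). Log2 FC over CON of input in the same windows was 0.23 in Msra, 0.56 in Gm20388, 0.37 in Ctif, 0.40 in Dscaml1, 0.07 in Tcf4, -0.39 in Pcdh9 and -0.07 in Zeb2. Input lay farther from 0 than H4K5ac-ChIP, in the same direction, in 130 of the 172 genes, and did not in Zeb2, Zbtb20 (0.035 against 0.085) and Cdk19 (0.084 against 0.13), among others. Median GC content of the windows was 54.9% in Gm20388, 49.6% in Ctif and 49.55% in Dscaml1 but 38.0% in Pcdh9 and 39.9% in Zeb2. Zbtb16 departed from this order, with 48.7% GC and 0.48 in input but 0.02 (-0.08 to 0.12) in H4K5ac-ChIP.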

How the data were processed

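Chromatin of the hippocampus was immunoprecipitated with an antibody to H4K5ac or with IgG, or kept as input, in FC and CON mice, 1 library each. The authors sequenced the DNA on the SOLiD platform in colour space, aligned reads to mm9 with Bioscope and deposited the positions of aligned reads. The only value column of the deposited files is a mapping score for each read, which the authors' alignment gave. It was used for an alternative and averaged 78.9 over H4K5ac-ChIP reads in the chosen windows and 76.3 over candidates. Reads with several positions in the genome were allowed by the alignment, so counts in repeats are less certain.

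Deposited libraries held 14549689 to 45673239 reads. One read was kept per 5′ position and strand, which left 11953514 to 39283801, and each was counted in the 1 kb window of its midpoint. Values in RPM are scaled to the total of these. Genes, exons and TSS came from the GENCODE annotation of mm9, and a window in several genes was given to the shortest. Ratios have exact binomial 95% intervals. Low depth of IgG-IP, a median of 11 pooled reads in a window, makes single-window ratios to IgG-IP imprecise.

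Named genes were the 15 host genes with most windows, the 12 windows highest over input, 6 windows at each end of FC over CON, the 6 longest runs, up to 4 genes per list, 5 windows on each side of the threshold and the genes of the RT-qPCR list. Some genes that this rule names are not reported here. The windows and lists were chosen with earlier results of these data known. The rule and intervals were tested on simulated Poisson counts with known enrichment. These lacked the GC dependence of input seen here, so they check the calculation and not the choice of windows. Python 3.11.15, NumPy 2.4.6, SciPy 1.17.1, pysam 0.24.0 and matplotlib 3.10.9 were used. Alternatives are given in the closing section.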

Additional observations from a re-analysis of the deposited data

Results flagged for a closer look

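Chromosome X lay outside the rule. Under the same thresholds, 7 of its 33647 candidate windows (0.0208%) were rich in H4K5ac, in 4 genes, of which Gpm6b, a membrane glycoprotein of neurons and glia, held 4, and Cask, Zfp185 and Reps2 held 1 each. In these 7 windows H4K5ac-ChIP was 4.52 times input in FC and 4.44 times in CON, while IgG-IP was 0.694 and 1.11 times input. The H4K5ac-ChIP values are above those of all candidate windows on chromosome X, 1.24 and 1.02, and were chosen on the same reads. IgG-IP of all those candidates was 1.33 times input in FC and 1.02 times in CON. These windows were listed because they lie in data that no comparison above used.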

How the results depend on the processing

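The number of windows stayed within 1.5 times of 7024 with all deposited reads, 40 pooled reads, 10 or 2 kb from a TSS, TSS of genes only, reads shifted by 75 bp, windows starting at 500, totals of chromosomes 1 to 19 and a mapping score of 20 or more. It was 3558 at 80 reads, 2159 at 3 times and 20375 at 2 times input, 21305 with IgG-IP as the control and 15619 with input scaled by GC content. Alternatives added after the data were seen gave 21215 with CON input as the control in both groups and 3704 with input and IgG-IP both; with FC input in both it was 8458. Of the 7024 windows, 5787 were also chosen with all deposited reads, 5500 with shifted reads, 5847 at a mapping score of 20, 3704 with IgG-IP as the control, 6075 with GC-scaled input, 6190 with CON input and 4872 with FC input.

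Log2 FC over CON (0.12) was 0.12 with all deposited reads and with TSS of genes only, 0.16 at 80 and 0.072 at 40 reads, 0.11 at 3 times input and at 10 kb, 0.085 with IgG-IP as the control and 0.14 at a mapping score of 20. It was 0.17 less IgG-IP, 0.11 less candidates of the same GC content, and turned to -0.088 less input. With CON or FC input in both groups it was 0.080 or 0.010, and 0.14 with input and IgG-IP both. Leaving out Gm20388 gave 0.11.

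The share free of exons (90.6%) was 89.1% with all deposited reads, 88.2% at 2 times input, 91.5% at 10 kb, 85.5% with IgG-IP and 86.6% with input scaled by GC content. Median GC content (44.5%) was 43.9%, 45.3%, 44.3%, 47.8% and 47.9%, respectively, and 43.8% at 3 times input. The cause of these shifts was not tested. No paired analysis was possible because each group has 1 library of a kind.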
